A study of Solanum tuberosum with 6 samples.

Results

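The predicted new miRNAs of 20 to 23 nt are the sequences of the miRNA table of potato leaves that the authors assigned to no known miRNA and placed in a predicted hairpin of the potato genome (group 4a, with names that begin with PC) and were 20, 21, 22 or 23 nt long. There were 88 of them among the 910 sequences of the table and among the 388 sequences of group 4a. By length, 5 had 20 nt, 48 had 21 nt, 30 had 22 nt and 5 had 23 nt, and by the arm of the hairpin in their names 39 were 5p and 49 were 3p sequences. Group 4a also holds 264 sequences of 24 nt, which are used below for comparison.

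Leaves of potato (Solanum tuberosum, cv. Shepody) came from plants that received a foliar spray of potassium phosphite, 5 mL for each plant of a commercial product diluted to 1% (v/v) (KPhi, libraries T2, T4 and T6), or of water (control, libraries C1, C3 and C5). Both groups were sprayed 21 days after emergence and harvested 72 h later, 24 days after emergence. The study describes the 3 libraries of each condition as biological replicates. Mappable reads were 8025802, 4390887 and 5945775 in T2, T4 and T6, and 5434422, 4747153 and 4133739 in C1, C3 and C5.

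Plant miRNAs are cut as a duplex from the stem of a hairpin transcript, mostly by DCL1, and 1 strand of the duplex is loaded into an Argonaute protein that cleaves mRNAs with a nearly complementary site or represses their translation. Most plant miRNAs have 21 nt, and AGO1, their main partner, favours a 5' U. Many of those with 22 nt are known to trigger the production of secondary small RNAs from their targets. Small RNAs of 24 nt are mostly siRNAs cut by DCL3 from double-stranded RNA, are loaded into AGO4 with a preference for a 5' A, and direct DNA methylation at repeats. Phosphite is a reduced analogue of phosphate that primes defence responses in plants but does not feed them with phosphorus.

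The 14 members with the most reads are printed 5' to 3' because they carry 95.5% of the reads of the 88 members. Capitals mark bases 2 to 8 (the seed), and T stands for U.
PC-3p-175_6599: tTTCCATCgagcggcgggtaga
PC-5p-3650_550: aTTGGTCAtcgcgcttggttga
PC-5p-1305_1307: cTTTGTGAaatgacttgaga
PC-3p-277_4703: tGAAGGTCcgaggttgaggtt
PC-3p-1582_1132: cAATTGGTcatcgcgcttggt
PC-5p-4138_490: tTGGACTTtgggatgggccggcc
PC-3p-819_1881: tGAATCTCagtggatcgtggc
PC-3p-639_2331: tGCAGGACtctatgctctcca
PC-3p-2679_728: cGGGGTATtgtaagtggcaga
PC-5p-1156_1452: tCTTCCTAcgagacctccgaa
PC-5p-3568_561: tCGTACTAggttgaattacta
PC-5p-1668_1087: tGGGTTGCtgtaggattgatg
PC-5p-14130_152: cAGCCAGGaggtttgcctagaa
PC-3p-3641_551: tTGGTTGAgtgagcatctaag
Of these 14, 9 begin with T, 4 with C and 1 with A, and each has a seed of its own.

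Few sequences carried most of the reads. The 88 members had 112809 reads in the 6 libraries, and PC-3p-175_6599 alone had 51751 of them, or 45.9%. This sequence made up 79.3% of the reads of the 22 nt members, while the leading 21 nt member, PC-3p-277_4703, made up 25.6% of the reads of its length. A total of 13 members had at least 1000 reads, 31 had at least 100 and 40 had fewer than 30, with a median of 39.5 reads. The 264 sequences of 24 nt had 8168 reads together, a median of 17 and a highest value of 452.

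Members were also detected more regularly than the 24 nt sequences. All 6 libraries held reads of 62 of the 88 members, compared with 129 of the 264 sequences of 24 nt. The filter of at least 10 reads in at least 3 libraries was passed by 37 members (42.0%) and by 29 of the 264 sequences of 24 nt. Of the 37 members, 23 had 21 nt, 11 had 22 nt, 2 had 20 nt and 1 had 23 nt. The other 51 had between 5.50 and 48.0 reads in all, and their reads summed to 203, 120 and 212.5 in T2, T4 and T6 and to 197, 131 and 154 in C1, C3 and C5. No comparison of single sequences was made for them.

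The first base set the members apart from the 24 nt sequences of the same group. A 5' T was found in 56 of the 88 members (63.6%), at 64.6% in those of 21 nt and 70.0% in those of 22 nt. Among the 24 nt sequences 11.4% began with T and 83.0% with A, whereas 19.3% of the members began with A. The 115 known potato miRNAs of 20 to 23 nt in the table had a 5' T in 58.3% and a 5' A in 21.7%. G was the rarest first base of the members, in 2 of 88, compared with 11.3% of the known miRNAs. Median GC content was 47.6% in the members and 45.8% in the 24 nt sequences. These are counts of sequences, many of which overlap one another, and no test was made over them.

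**Figure D1:**
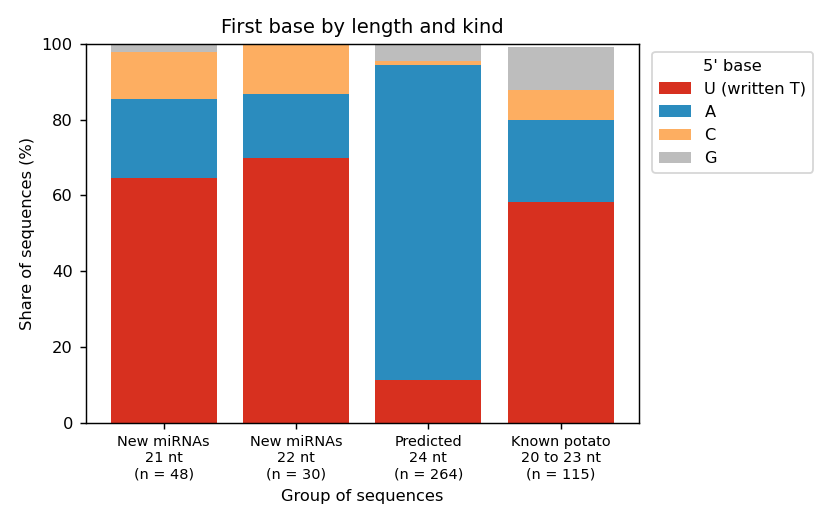
Share of sequences (%) by first base for the new miRNAs of 21 nt (48) and 22 nt (30), the predicted sequences of 24 nt (264) and the known potato miRNAs of 20 to 23 nt (115). T leads in the 21 nt (64.6%), 22 nt (70.0%) and known (58.3%) sequences and A in the 24 nt sequences (83.0%).

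Sequences named 3p held 70.8% of the reads of the members, 82.1% in the 21 nt and 80.9% in the 22 nt class, and 53.6% in the 24 nt sequences. The value over all members rests on PC-3p-175_6599, without which 3p sequences held 46.0% of the reads, and so does the 22 nt value (7.38% without it). In the 20 nt and 23 nt classes nearly all reads came from 1 5p sequence each, PC-5p-1305_1307 (97.2%) and PC-5p-4138_490 (98.8%).

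To see whether KPhi spraying moved the amount of new miRNAs as a whole, their reads were set against all mappable reads of each library. The members made up 0.195%, 0.459% and 0.416% of the mappable reads in T2, T4 and T6, and 0.271%, 0.486% and 0.352% in C1, C3 and C5. The ranges of KPhi and control libraries overlap, with T2 the lowest and C3 the highest library (exact two-sided permutation test, p = 0.9, n = 3 each). With 3 libraries against 3 no p below 0.1 can be reached.

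By length, the 21 nt members took 0.0531%, 0.117% and 0.0901% in T2, T4 and T6, and 0.0963%, 0.187% and 0.0966% in C1, C3 and C5. The KPhi mean was 0.0868% ± 0.0321 and the control mean 0.127% ± 0.0522 (SD, n = 3 each), a difference of -0.0399 percentage points that is within the spread of the libraries (exact permutation test, p = 0.4, 0.8 after adjustment over 3 shares). C3 held the highest share of the 6 libraries and C1 and C5 were nearly equal. The 22 nt members took 0.101%, 0.271% and 0.273% in T2, T4 and T6, and 0.144%, 0.264% and 0.208% in C1, C3 and C5. Their means were 0.215% ± 0.0989 in KPhi and 0.205% ± 0.0604 in control libraries (SD, n = 3 each), and the exact permutation test gave p = 0.8 (adjusted 0.8). Without PC-3p-175_6599 the 22 nt share was 0.0332%, 0.0637% and 0.0480% in KPhi and 0.0291%, 0.0365% and 0.0448% in control libraries, which also overlap (exact permutation test, p = 0.4, n = 3 each).

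The 23 nt share was the only one of the 4 lengths with no overlap between the conditions, at 0.0162%, 0.0253% and 0.0158% in T2, T4 and T6 and 0.0100%, 0.0130% and 0.0142% in C1, C3 and C5. The exact permutation test gave p = 0.1 for it (n = 3 each), the smallest value possible, and it is in effect the share of PC-5p-4138_490. This p was not adjusted over the 4 lengths. PC-5p-4138_490 is on the study's list of responding sequences drawn from these same libraries, so the separation is no independent evidence. Members made up 61.7%, 62.9% and 66.2% of the reads of group 4a in T2, T4 and T6, and 54.4%, 68.3% and 61.4% in C1, C3 and C5. These shares averaged 63.6% ± 2.31 in KPhi and 61.3% ± 6.97 in control libraries (SD, n = 3 each), with p = 0.7 (adjusted 0.8) by the exact permutation test.

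**Figure D2:**
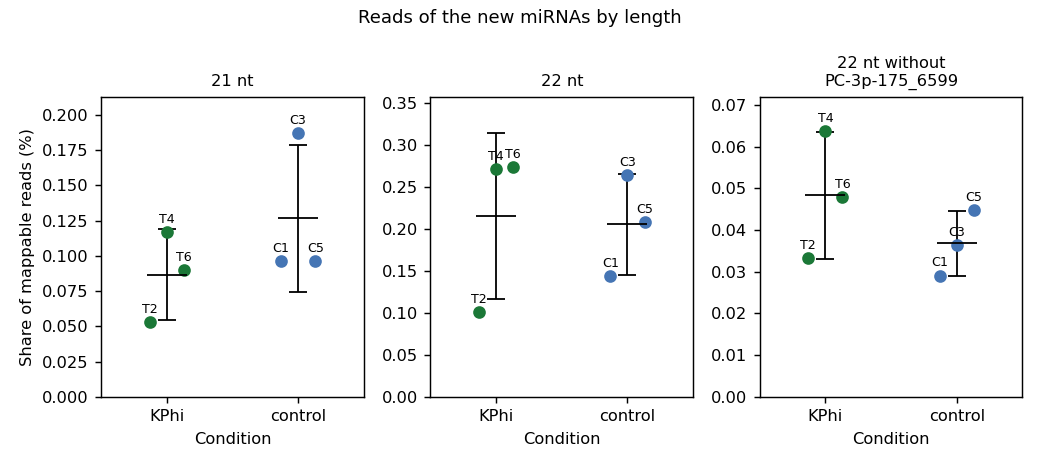
Share of mappable reads (%) in the new miRNAs of 21 nt, of 22 nt, and of 22 nt without PC-3p-175_6599, by condition. Points are libraries and bars the mean and SD of 3 libraries, and KPhi and control points overlap in each panel, with C3 highest at 21 nt (0.187%).

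Single sequences were compared on the whole miRNA table. Levels are given as CPM, read numbers set on the size of each library's miRNA table and corrected by TMM, a scaling under which most sequences are taken to be equal between libraries. The scaling factor of T4 was 1.849 and those of the other libraries lay between 0.7456 and 0.9465. T4 was also the library with the fewest reads in the table (160906), so that low sequences were counted least precisely there. The replicates of these libraries varied with a biological coefficient of variation of 49.8%.

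After adjustment over the 165 sequences tested, 0 of the 37 members and 0 of all sequences (0%) had an edgeR adjusted p under 0.05. At an unadjusted p under 0.05, 2 members were higher and 1 was lower in KPhi libraries. Among all sequences tested, 9 (5.45%) were higher and 7 (4.24%) lower, so the members' shares were close to the background. DESeq2 also gave 0 members after adjustment, and before it 6 members that were higher and 1 that was lower, of 20 higher and 7 lower among all 165. The log2 fold change was above 0 for 18 members and below 0 for 19, with a median of -0.04, compared with -0.13 over all sequences tested.

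This balance depends on the scaling. With mappable reads as library size the median was -0.46 for the members and -0.49 for all sequences, and 12 of 37 members were above 0. With table reads alone it was 0.48 for the members and 0.35 for all sequences, and 27 members were above 0. By length, 9 of the 21 nt members were above and 14 below 0 (median -0.16), and 6 of the 22 nt members were above and 5 below (median 0.20). By arm, 11 of 17 5p members were above 0 (median 0.29) and 7 of 20 3p members (median -0.15). Neither of these 2 contrasts was tested. In the 24 nt sequences 8 of 29 were above 0 (median -0.18).

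**Figure D3:**
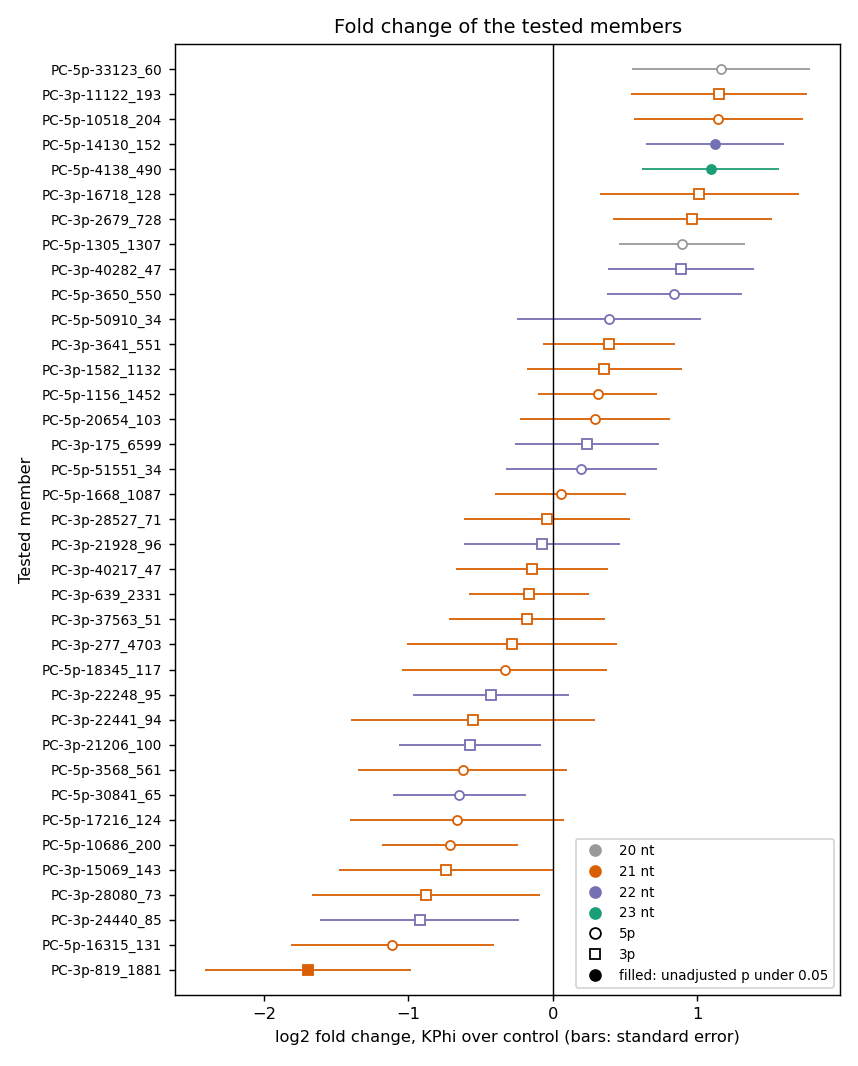
The log2 fold change (KPhi over control) with its standard error for the 37 tested members, by length (colour) and arm (circles 5p, squares 3p), from edgeR with TMM scaling. The estimates run from -1.69 for PC-3p-819_1881 to 1.17 for PC-5p-33123_60, and the 3 filled points had an unadjusted p under 0.05.

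The most abundant member, PC-3p-175_6599 (22 nt), had 16256, 30652 and 25795 CPM in T2, T4 and T6 and 10732, 30976 and 19976 CPM in C1, C3 and C5. C3 was the highest library and C1 the lowest, so that the control libraries span all KPhi libraries. The log2 fold change was 0.24 with a standard error of 0.50 (edgeR unadjusted p = 0.643, adjusted p = 0.821). It had the highest level of all members in each of the 6 libraries.

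PC-5p-3650_550 (22 nt) had 6043, 8099 and 4253 CPM in KPhi libraries and 1922, 3995 and 4334 CPM in control libraries. T2 and T4 were above every control library and T6 was just under C5 (log2 fold change 0.84, standard error 0.47, edgeR adjusted p = 0.534). PC-3p-1582_1132 (21 nt), which shares 19 bases with it, had 1951, 4043 and 1931 CPM in KPhi libraries and 987, 3313 and 1884 CPM in control libraries. Here C3 lay above both T2 and T6 and the log2 fold change was 0.36 (standard error 0.54). Without C3 it was 1.03.

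Some of the abundant members hardly moved with the condition. PC-3p-639_2331 had 1253, 1482 and 1550 CPM in KPhi libraries and 1789, 1123 and 1887 CPM in control libraries. PC-5p-1156_1452 had 758, 783 and 633 CPM in KPhi libraries and 642, 633 and 476 CPM in control libraries. PC-5p-1668_1087 had 671, 507 and 551 CPM in KPhi libraries and 783, 358 and 521 CPM in control libraries. The log2 fold changes were -0.16, 0.31 and 0.06, with standard errors of 0.41, 0.41 and 0.45, so each difference was smaller than its standard error. PC-3p-3641_551 had 340, 286 and 246 CPM in KPhi libraries and 305, 186 and 172 CPM in control libraries, with C1 above T4 and T6.

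PC-3p-2679_728 (21 nt) had 662, 2245 and 1063 CPM in KPhi libraries and 428, 599 and 1003 CPM in control libraries. T4 stood at more than 2 times the other KPhi libraries, and T2 lay among the control libraries (log2 fold change 0.97, standard error 0.55, edgeR adjusted p = 0.534). T4 was more than 2 times the higher other KPhi library in 4 of the 37 members.

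**Figure D4:**
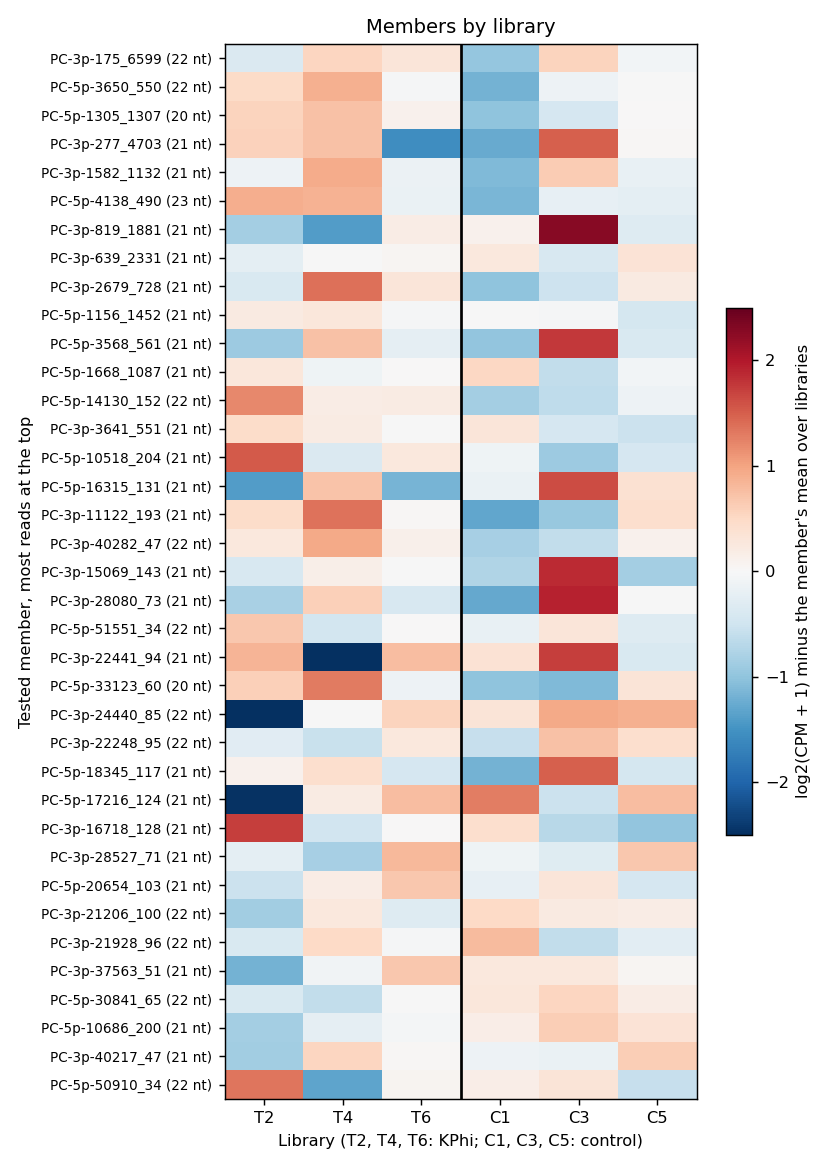
Level of the 37 tested members in each library, as log2(CPM + 1) minus the mean of the member over the 6 libraries, with the members in order of reads and KPhi libraries left of the black line. C3 is the highest library in 13 of 37 members, among them PC-3p-819_1881, at 6889 CPM.

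Library C3 stood apart from C1 and C5 in a part of the members. It was the highest of the 6 libraries in 13 of the 37 members, and in 35 of all 165 sequences tested. In 8 members C3 was more than 2 times the higher of the other control libraries (15 of all 165). All 8 had 21 nt. PC-3p-819_1881 had 787, 541 and 1631 CPM in KPhi libraries and 1546, 6889 and 1151 CPM in control libraries. PC-3p-277_4703 had 4581, 5111 and 1049 CPM in KPhi libraries and 1294, 8640 and 3127 CPM in control libraries. PC-5p-3568_561 had 274, 864 and 445 CPM in KPhi libraries and 261, 1777 and 399 CPM in control libraries. In these 3 members the KPhi libraries overlap C1 and C5 and only C3 lies above all of them. The other 5 were PC-5p-16315_131, PC-3p-15069_143, PC-3p-28080_73, PC-3p-22441_94 and PC-5p-18345_117, at 143 to 444 CPM in C3.

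PC-3p-819_1881 was the member with an unadjusted p under 0.05 that was lower in KPhi libraries (log2 fold change -1.69, standard error 0.71, edgeR unadjusted p = 0.0377, adjusted p = 0.470). Without C3 its log2 fold change was -0.24 (edgeR unadjusted p = 0.682, adjusted p = 0.869), so 1 library decides this value. For PC-3p-277_4703 the log2 fold change was -0.28 with C3 and 0.84 without it, and for PC-5p-3568_561 -0.62 and 0.82. All 8 members high in C3 had a log2 fold change below 0, and without C3 2 of them did, which the choice of members by a high control library largely fixes. T4 was the highest KPhi library in 6 of these 8 members, and in 18 of the 37. Over the 37 members 26 were above 0 without C3 and 11 below, with a median of 0.61, and the median over all sequences was then 0.21. C3 was singled out for its high levels in members, so a rise without it is partly set by that choice. Without C1 the median of the members tested was 0.064, and without C5 0.19 (0.064 and 0.12 over all sequences). Leaving out T4 gave 20 above and 17 below.

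PC-5p-4138_490 (23 nt) had 3827, 3713 and 1800 CPM in KPhi libraries and 915, 1751 and 1710 CPM in control libraries. Every KPhi library was above every control library, although T6 exceeded C3 by only a small margin. The means were 3113 ± 1139 CPM and 1458 ± 471 CPM (SD, n = 3 each), with a log2 fold change of 1.09 (standard error 0.47, edgeR unadjusted p = 0.0424, adjusted p = 0.470). With mappable reads as library size it was 0.64 (edgeR unadjusted p = 0.298), and leaving out T2, T4, C1 or C5 alone put the unadjusted p above 0.05, at up to 0.0802 without C1.

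PC-5p-14130_152 (22 nt) had 1202, 598 and 606 CPM in KPhi libraries and 290, 335 and 479 CPM in control libraries, with T2 at about 2 times T4 and T6. Its log2 fold change was 1.12 (standard error 0.48, edgeR unadjusted p = 0.0386, adjusted p = 0.470), and 0.60 with mappable reads as library size (edgeR unadjusted p = 0.347). Without T2 the unadjusted p was 0.167 and without C1 0.0834. Its seed AGCCAGG also occurs in sly-miR169c_1ss7AG, a row with 16 reads. By its name that row has a substituted base inside the seed, so the seed of miR169c itself is another.

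For PC-5p-1305_1307 (20 nt) the study also made a stem-loop PCR assay. It reported a pattern like that of the sequencing, with this sequence up-regulated after KPhi, and the PCR values were not analysed here. In the libraries PC-5p-1305_1307 had 5640, 6372 and 4102 CPM with KPhi and 1910, 2869 and 3875 CPM in controls. T6 and C5 nearly touch, and the log2 fold change was 0.90 (standard error 0.44, edgeR unadjusted p = 0.0654, adjusted p = 0.491). With mappable reads as library size it was 0.49 (edgeR unadjusted p = 0.425). PC-3p-40282_47 (22 nt) had 191, 309 and 175.2 CPM in KPhi libraries and 89.7, 103.2 and 171.6 CPM in control libraries, with a log2 fold change of 0.89 (standard error 0.51). T6 was only just above C5, and the log2 fold change with mappable reads as library size was 0.50 (edgeR unadjusted p = 0.484).

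On the other side, PC-5p-30841_65 (22 nt) had 23.9, 20.2 and 30.8 CPM in KPhi libraries and 38.0, 45.9 and 35.5 CPM in control libraries. PC-5p-10686_200 (21 nt) had 14.9, 23.5 and 27.0 CPM in KPhi libraries and 31.1, 43.0 and 35.5 CPM in control libraries. Both were counted with few reads, between 5.33 and 21.5 per library, and their log2 fold changes were -0.65 (standard error 0.46) and -0.71 (standard error 0.47).
PC-3p-40282_47: cTACTTTTaacgttattttact
PC-5p-30841_65: tCACCTTGgagttgttctgctt
PC-5p-10686_200: tCAGCCAGcccaagtcagtag
PC-5p-1305_1307, PC-5p-4138_490, PC-5p-14130_152, PC-3p-40282_47, PC-5p-30841_65 and PC-5p-10686_200 are on the list of responding sequences that the study drew from these same libraries, so that their separation is no independent evidence. They were the 6 members of 37, 4 higher and 2 lower in KPhi, whose KPhi and control libraries did not overlap in CPM. Over all 165 sequences 28 (17.0%) did not overlap, and 6 of 37 is close to that share.

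The study predicted mRNA sites for these listed members, 3 of which are shown as examples of how the sequences would pair. Each site is written 5' to 3', with capitals where the base pairs by Watson-Crick rules with the small RNA, and lower case where it does not.
Protein RIK, site for PC-3p-40282_47: AGUAAAAUAAuGUUAAAAGUAu
F-box protein family, site for PC-5p-1305_1307: aCUCAAGgCAUUUCAuAgAG
non-LTR retroelement reverse transcriptase, site for PC-5p-4138_490: aGCaGGCCCAUCaCAAgGUCCAA
The site in the mRNA of Protein RIK pairs at 20 of 22 bases, the most among the sites listed for PC-3p-40282_47. The F-box site, in a family of proteins that bring substrates to ubiquitin ligases, pairs at 16 of 20 bases, and 2 of the 4 others are G-U pairs. The site in the retroelement sequence pairs at 19 of 23 bases. Many other sites were predicted for these 3 sequences. They pair at as few as 13 of 22 bases for PC-3p-40282_47, 14 of 20 for PC-5p-1305_1307 and 14 of 23 for PC-5p-4138_490. The levels of these mRNAs were not analysed here. The study measured the F-box mRNA by PCR and reported a level negatively correlated with that of PC-5p-1305_1307.

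Many members overlap other sequences of the table. Of the 88 members, 33 overlap another row of the table by at least 11 bases at their ends without a mismatch, or by at least 16 bases with 1 mismatch. On the same strand 23 members overlap another row and 10 are complementary to another row. Together with their partners they form 21 sets. In 6 members the partner is a known miRNA row. The overlapping bases are in capitals in the pairs that follow.
PC-3p-22248_95: ATGTCTTTCCGATGCCTCCCAt
stu-miR8036-3p: tATGTCTTTCCGATGCCTCCCA
PC-5p-108737_11: cTTGCAACACACCTGAATCGTC
stu-miR6149-5p: TTGCAACACACCTGAATCGTC
PC-5p-52991_32: tTGGTCGGCATGACTCCCGAGG
stu-miR8032a-5p: TGGTCGGCATGACTCCCGAGGt
These 3 members share 21 bases with the known miRNA and begin 1 base earlier or later. Their reads were 138, 11 and 22.5, compared with 24357, 6858 and 41.8 for the known sequences. PC-3p-3641_551 (627 reads) and PC-5p-17216_124 (134 reads) each share 17 bases with rows of the MIR9471 family, which had 24 and 38 reads, so that in this case the new sequence is the more abundant.

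PC-3p-46589_39, with 27.5 reads, overlaps stu-miR398b-3p over 16 bases and lies 5 bases further towards the 3' end. miR398 targets mRNAs of copper/zinc superoxide dismutases.
PC-3p-46589_39: TTCTCAGGTCACCCCTttggg
stu-miR398b-3p: ttgtgTTCTCAGGTCACCCCT
It was too rare to be compared between conditions.

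Among predicted sequences 11 pairs overlap on the same strand, and in 5 of these pairs a 5p and a 3p name stand on the overlapping sequences. The most abundant such pair is shown with its 19 shared bases in capitals, followed by PC-5p-1305_1307 and its partner with 15.
PC-5p-3650_550: ATTGGTCATCGCGCTTGGTtga
PC-3p-1582_1132: caATTGGTCATCGCGCTTGGT
PC-5p-1305_1307: ctttgTGAAATGACTTGAGA
PC-3p-11122_193: TGAAATGACTTGAGAggtgta
An arm name is thus not a fixed property of such a stretch of sequence, and the hairpins behind the names were not analysed here. PC-3p-11122_193 (21 nt) had 209, 390 and 154 CPM in KPhi libraries and 60.4, 77.4 and 201 CPM in control libraries. C5 lay above T6, and the log2 fold change was 1.15 (standard error 0.61), compared with 0.90 for PC-5p-1305_1307. Part of the reads of PC-3p-11122_193 and of PC-5p-1305_1307 are fractions of reads that the authors split between sequences.

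In other pairs the sequences differ by a single base at an end or inside. PC-3p-24440_85 and PC-3p-37563_51 share their first 21 bases, and PC-3p-24440_85 has 1 more at the 3' end. PC-3p-21206_100 and PC-3p-21928_96 differ at 1 of 22 bases.
PC-3p-21206_100: TGGGGAATCTAGAGGTGAGCTC
PC-3p-21928_96: TGGGAAATCTAGAGGTGAGCTC
Their reads were 100 and 96, and the log2 fold changes -0.57 (standard error 0.49) and -0.07 (standard error 0.54).

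Complementary sequences were found in 7 pairs with at least 1 member, and in 5 pairs both sequences were tested. The bases that pair are in capitals.
PC-3p-175_6599: tttccatcgAGCGGCGGGTAGA
PC-3p-22441_94: caaaggatTCTACCCGCCGCT
PC-3p-277_4703: TGAAGGTCCGAggttgaggtt
PC-3p-28080_73: TCGGACCTTCAtctataacgt
PC-3p-277_4703: tGAAGGTCCGAGGTTGAGGTT
PC-5p-18345_117: cAACCTCAACCTCGGACCTTC
PC-3p-819_1881: tgaaTCTCAGTGGATCGTGGC
PC-3p-2979_661: ctGCCACGATCCACTGAGA
PC-5p-3568_561: TCGTACTAGGTTGAATTActa
PC-5p-33123_60: TAATTCAACCTAGTACGAga
The 2 strands of a Dicer product pair over most of their length and leave short 3' overhangs. PC-5p-3568_561 and PC-5p-33123_60 pair over 18 bases with 3' overhangs of 3 and 2 bases. The others of these 5 pairs have another shape. PC-3p-277_4703 and PC-5p-18345_117 pair over 20 bases with 1 unpaired base at each 5' end, and PC-3p-819_1881 pairs with PC-3p-2979_661, a sequence shorter than 20 nt, over 17 bases with unpaired 5' ends. In 5 of the 7 pairs both sequences carry the same arm in their names.

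The strands were read unequally. PC-3p-175_6599 had 328 times the reads of its partner PC-3p-22441_94, which had 1 read in T4, and PC-3p-277_4703 had 41.7 and 61.0 times those of its partners. PC-5p-3568_561 had 10.1 times the reads of PC-5p-33123_60 and PC-3p-819_1881 had 3.95 times those of PC-3p-2979_661.

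In 3 of the 5 pairs the strands had fold changes of opposite sign. PC-3p-175_6599 was at 0.24 and PC-3p-22441_94 at -0.55, with 1 read of PC-3p-22441_94 in T4. Without C3 they were at 0.82 and 0.45, and without T4 at 0.14 and 0.10, so that their opposite sign rests on single libraries. PC-3p-819_1881 was at -1.69 and PC-3p-2979_661 at 0.94. PC-5p-3568_561 was at -0.62 and PC-5p-33123_60 at 1.17, but without C3 the values were 0.82 and 1.08, so that this opposite sign rests on C3. PC-3p-2979_661 had 674, 921 and 587 CPM in KPhi libraries and 254, 344 and 538 CPM in control libraries, while PC-3p-819_1881 peaked in C3. PC-3p-2979_661 is also on the study's list drawn from these libraries, so its separation is no independent evidence. The log2 ratio of PC-3p-819_1881 over PC-3p-2979_661, taken on CPM + 1, was 0.22, -0.77 and 1.47 in T2, T4 and T6 and 2.60, 4.32 and 1.09 in C1, C3 and C5. T4 was the only library in which the shorter strand led, and T6 lay above C5. The mean was 0.31 in KPhi and 2.67 in control libraries (exact two-sided permutation test, p = 0.2, adjusted over 5 pairs 0.875, n = 3 each).

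PC-5p-33123_60 (20 nt) had 86.5, 141 and 52.0 CPM in KPhi libraries and 27.6, 25.8 and 71.0 CPM in control libraries (log2 fold change 1.17, standard error 0.62, edgeR adjusted p = 0.504). The log2 ratio of PC-5p-3568_561 over PC-5p-33123_60 was 1.65, 2.60 and 3.07 in T2, T4 and T6 and 3.19, 6.05 and 2.48 in C1, C3 and C5, again with C3 far above the rest (exact permutation test, p = 0.4, adjusted 0.875, n = 3 each). For the other 3 pairs the exact permutation p was between 0.6 and 0.9.

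**Figure D5:**
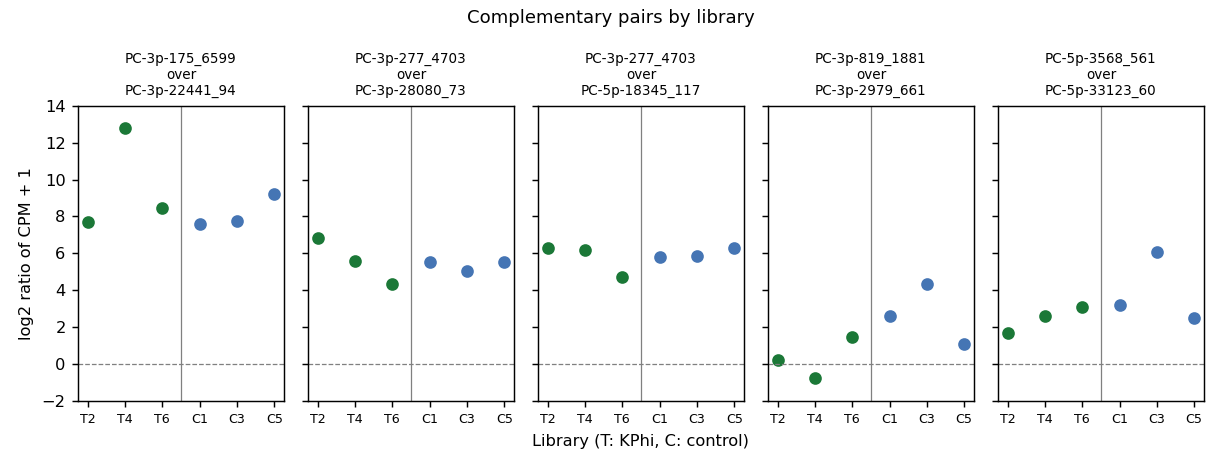
The log2 ratio of CPM + 1 of the more abundant over the less abundant strand in the 5 complementary pairs with both strands tested, by library (green KPhi, blue control). The dashed line marks equal levels, and PC-3p-819_1881 over PC-3p-2979_661 is the only pair that crosses it, at -0.77 in T4.

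Some members high in C3 also lie in complementary pairs. Of the 8 members high in C3, 6 lie in a complementary pair, compared with 2 of the other 29 tested members. This count was not tested, and 3 of the 6 (PC-3p-277_4703 and its partners) belong to 1 overlap set. PC-3p-277_4703 and both of its partners were highest in C3, at 8640, 264 and 149 CPM. In the pair of PC-5p-3568_561 the more abundant strand was highest in C3 and PC-5p-33123_60 was lowest there. A cause for the level of these sequences in C3 was not tested.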

How the data were processed

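Small RNA libraries of 3 KPhi and 3 control leaf samples were prepared by the TruSeq Small RNA protocol, sequenced single-end, and processed by the authors with the program ACGT101-miR (version not given in the sources used here). By the study's description, the authors removed reads without the 3' adapter, low-complexity reads and common RNA families such as rRNA and tRNA. Whether fragments of rRNA remain among the members was not tested. The authors mapped the rest by BLAST to miRBase precursors and to the potato genome, and predicted hairpins with RNAfold. The deposited expected counts are reads per sequence and library, with fractions where the authors split a read between sequences, and they were rounded to whole reads for the count tests. Deposited whole-number counts of mappable reads per library gave the denominators of the shares. The deposited normalized values (signal) are the same reads divided by 1 factor per library and were used only in limma-trend. A deposited table of the authors' own test (means, fold changes and p-values) was not used. The number of columns that matched no sample was 0.

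Members were taken by group, name and length. The members and the lists were chosen with earlier results of these data known. edgeR 4.0.16 (R 4.3.3) was fitted to the whole table with TMM scaling and the quasi-likelihood test, on the 165 sequences that reached 10 reads in 3 or more libraries, and p-values were adjusted by Benjamini-Hochberg over these (threshold 0.05). The standard error is that of the log2 fold change. Shares and strand ratios (log2 of CPM + 1) were compared in exact permutation tests (two-sided). The fit was also run on simulated counts with less spread between replicates than in these libraries, so that run does not show its power here. The members named are the 14 with the most reads, the 6 on the study's list, those with an unadjusted p under 0.05 and some of those that overlap another row. The rest of the overlapping members enter only the counts. A few members outside these lists are named beside a count, a choice made after seeing their values.

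As alternatives, DESeq2 1.42.0, RLE size factors, mappable reads, library size only, no filter and 10 reads in every library were tried, with limma-trend (limma 3.58.1, log2 of the normalized value + 1), other denominators, leaving out PC-3p-175_6599 and leaving out each library, and, added after the data were seen, leaving out C3 and T4 together. Other software was matplotlib 3.10.9, scipy 1.17.1, numpy 2.4.6 and pandas 2.3.3 under Python 3.11.15. No potato genome was used, so positions, hairpins and matches to ribosomal RNA were not analysed here. The p-values of the fits set the difference between conditions against the spread between these libraries, estimated in part across all sequences tested. The exact permutation p-values place the difference among those from all divisions of the 6 libraries into 3 and 3.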

Additional observations from a re-analysis of the deposited data

How the results depend on the processing

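No paired analysis was made. The KPhi and control libraries share no replicate number, and neither the labels nor the study state whether they were paired. Of the 17 members named by reads, list or p, 10 kept the sign of their log2 fold change in every alternative, and none had an adjusted p under 0.05 in any of 219 values from 13 alternative fits (smallest 0.171). The fit without C3 and T4 was used for counts only. The sign turned in 13 of the 219 values. With mappable reads as library size it was -0.013 for PC-3p-175_6599, -0.14 for PC-5p-1156_1452, -0.46 for PC-5p-1668_1087 and -0.13 for PC-3p-3641_551. With library size only it was 0.48 for PC-3p-277_4703, 0.34 for PC-3p-639_2331 and 0.22 for PC-5p-3568_561. Leaving out 1 library gave -0.62 to 0.84 for PC-3p-277_4703, -0.19 to 0.093 for PC-3p-639_2331, -1.07 to 0.82 for PC-5p-3568_561 and -0.064 to 0.55 for PC-5p-1668_1087. PC-3p-819_1881 ran from -2.21 to -0.24, which was its value without C3.

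The number of members at an unadjusted p under 0.05, 3 in the edgeR fit with TMM, was 8 with library size only, 1 with mappable reads, 9 of 88 without a filter, 7 with DESeq2 and 1 with limma-trend, and 0 (without C1) to 5 (without T6 or C5) with 1 library left out. Over the whole table the number was 16, and 23 with library size only, 13 with mappable reads, 46 of 841 without a filter, 27 with DESeq2, 9 with limma-trend, and 4 to 21 with 1 library left out. At an adjusted p under 0.05 the table gave 4 sequences without a filter and 5 without C3 and T4, of which 0 were members. The 21 nt share, lower in KPhi libraries as a share of mappable reads, was higher by 0.505 percentage points as a share of the table's reads (exact permutation test, p = 0.6, n = 3 each). The differences with 1 library left out ran from -0.0550 to -0.00971 percentage points for the 21 nt share, from -0.0209 to 0.0671 for the 22 nt share and from -1.23 to 5.74 for the share of group 4a. The cause was not tested for any of these. The 51 members below the filter were not compared singly, and T4 had the fewest reads in the miRNA table.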
